A study of Mus musculus with 16 samples.

Results

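Immediate early genes are a set of genes whose transcription starts within minutes of a signal, without new protein synthesis. The 10 described here are Fos, Fosb, Jun, Junb, Jund, Egr1, Ier2, Ier3, Dusp1 and Atf3. They were chosen by symbol, and all 10 were found among the 20056 gene symbols of the deposited table. Poly(A)-selected RNA was sequenced from bone marrow stromal cells and bone-forming cells of mice with 8 animal numbers, in 4 groups of 4 libraries. These were osteoblasts (OBs) of miR-9-1-deficient mice, OBs of wild-type mice, mesenchymal stem cells (MSCs) of miR-9-1-deficient mice and MSCs of wild-type mice. In the deficient mice (KO), the microRNA locus Mir9-1 had been edited with CRISPR/Cas9 throughout the animal, and the wild-type mice (WT) carried no allele or treatment that the labels name. The study set the genotypes against each other in each sort, to follow miR-9-1 in the marrow niche where lymphocytes form. Both cell types had been sorted from the mice, and the labels name no sort gate, sex, age or number of edited lines.

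The products of these genes form a short relay. Growth factor, cytokine and stress signals reach mitogen-activated protein kinases (MAPKs), which act on factors bound at the promoters. FOS, FOSB, JUN, JUNB and JUND then pair into the transcription factor AP-1, while EGR1 binds GC-rich sites and ATF3 competes with or joins AP-1 partners. In bone, Fos family factors are known to act in both osteoblasts and osteoclasts, and overexpressed Fos gives bone tumours in mice. The same genes are also known to be induced while tissue is dissociated and cells are sorted. No unsorted cells were measured here, so the part that isolation had in any level was not tested.

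Values are normalized counts, that is reads per gene divided by 1 size factor per library. They serve to compare libraries for 1 gene, and levels of different genes are compared only after division by transcript length. Differences between groups are on the log2(normalized count + 1) scale, each with its standard error (SE). A difference is said to pass where the Benjamini-Hochberg adjusted p of limma, over all genes tested, was under 0.05. The labels give each OB library the animal number of 1 MSC library, so the mice are lettered E to H (deficient) and A to D (wild-type). Nothing else states that libraries of a group were separate preparations, so p-values measure the spread between these libraries.

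OB libraries held 15543693 to 18962771 reads and MSC libraries 10148197 to 14246986. The 10 genes took 0.977 ± 0.277% of the reads of deficient OBs and 0.721 ± 0.0321% of those of wild-type OBs, against 2.31 ± 0.0887% in deficient MSCs and 1.69 ± 0.150% in wild-type MSCs (SD, n = 4 each). Reads of the Mir9-1 gene were found in 1 deficient OB library (3 reads), in 3 wild-type OB libraries (at most 16 reads) and in no MSC library, so this transcript checks the genotype labels little. A count of 0 allows up to 3 reads at 95% confidence. Xist, made from the inactive X chromosome, had 5063 to 12053 reads and the Y-linked gene Ddx3y 902 to 2639 reads in the OB libraries, and in the MSC libraries Xist had 210 to 9689 and Ddx3y 23 to 2858. Both were found in all 16 libraries, so a library may hold RNA of more than 1 mouse, and a mouse letter here stands for the animal number in a library's label. The 14 bone matrix markers, such as osteocalcin and type I collagen genes, had a mean log2 level of 10.6 to 11.4 in wild-type OBs and of 12.3 in every wild-type MSC library. The 10 blood progenitor markers stood at 10.3 to 10.6 in OBs and at 7.68 to 8.36 in MSCs. The label "osteoblast" was therefore not borne out by higher bone markers than in the MSC libraries, and these libraries are called OB here by their label.

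The genes are annotated by GENCODE (GRCm38) as protein-coding, and positions are given for all but Egr1. On the forward strand are Fos (chr12:85473890-85477273), Jund (chr8:70698949-70700616) and Ier3 (chr17:35821684-35822923). On the reverse strand are Fosb (chr7:19302696-19310051), Jun (chr4:95049034-95052222), Junb (chr8:84974484-84978718), Ier2 (chr8:84661331-84662852), Dusp1 (chr17:26505590-26562128) and Atf3 (chr1:191170296-191218039). The library kit is not stated to keep the strand, so reads of Jun and its antisense gene Junos, or of Jund and Gm11175, cannot be told apart. Junb overlaps Prdx2 and Dusp1 overlaps Ergic1 on the opposite strand, and reads of the shared bases cannot be told apart either. Over the 16 libraries Prdx2 had 770 to 2911 normalized counts and Ergic1 643 to 2090.

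Promoter sequence from RefSeq (GRCm38.p6), 250 bases before to 50 after the transcription start, was at hand for 8 of the 10 genes. Of 8 motifs searched on both strands, the core of the cyclic AMP response element, TGACG, was in 5 of the 8 windows (Fos, Fosb, Junb, Dusp1 and Atf3), and in 20.9% of the 32544 distinct RefSeq windows. These 5 are shown to place the core in each. The windows of Jun, Jund and Ier3 did not hold it, and any part of the core in the levels was not tested. For Jund the window (chr8:70697489-70697788) ends before the GENCODE gene begins, so it does not reach the start of that gene. Each stretch is the 200 bases before the RefSeq start, 5′ to 3′ on the gene's strand, with TGACG or its reverse complement CGTCA, and the TATA box TATAAA, in capitals.
Fos promoter, chr12:85473690-85473889, forward strand: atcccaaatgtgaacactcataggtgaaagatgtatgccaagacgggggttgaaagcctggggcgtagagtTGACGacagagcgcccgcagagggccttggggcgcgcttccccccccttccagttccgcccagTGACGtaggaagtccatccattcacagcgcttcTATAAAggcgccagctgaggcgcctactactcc
Fosb promoter, chr7:19310046-19310245, reverse strand: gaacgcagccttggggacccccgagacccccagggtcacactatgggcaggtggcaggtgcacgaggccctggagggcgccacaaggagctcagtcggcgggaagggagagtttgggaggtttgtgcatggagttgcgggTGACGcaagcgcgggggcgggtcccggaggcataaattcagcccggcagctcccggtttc
Junb promoter, chr8:84978749-84978948, reverse strand: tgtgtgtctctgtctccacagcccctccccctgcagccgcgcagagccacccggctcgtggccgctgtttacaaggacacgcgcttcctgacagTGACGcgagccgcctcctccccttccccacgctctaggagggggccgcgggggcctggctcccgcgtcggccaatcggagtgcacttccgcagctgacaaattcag
Dusp1 promoter, chr17:26508473-26508672, reverse strand: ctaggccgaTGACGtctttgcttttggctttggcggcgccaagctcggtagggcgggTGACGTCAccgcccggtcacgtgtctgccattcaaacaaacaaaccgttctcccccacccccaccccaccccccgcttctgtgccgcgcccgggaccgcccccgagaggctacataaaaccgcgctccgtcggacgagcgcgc
Atf3 promoter, chr1:191183334-191183533, reverse strand: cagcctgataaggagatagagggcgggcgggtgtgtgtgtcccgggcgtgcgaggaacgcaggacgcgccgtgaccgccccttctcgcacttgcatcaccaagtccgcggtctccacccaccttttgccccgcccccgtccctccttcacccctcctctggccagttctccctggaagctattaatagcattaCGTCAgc
Counted from the RefSeq start, TGACG began at -129 and -66 in Fos, with TATAAA at -33, at -60 in Fosb and at -106 in Junb. Dusp1 held the core at -191 and the full palindromic element TGACGTCA at -143, which contains the core on each strand and was in 1.80% of all windows. In Atf3 the core lay on the other strand at -7. The starts used for Fosb, Ier3, Dusp1 and Atf3 lie inside the GENCODE genes given above, and those for Junb and Jund lie upstream of them. Fosb also held the EGR1 motif GCGNGGGCG at -50 (5.60% of windows). Junb had TATAAA at the RefSeq start itself (13.6% of windows), which is upstream of its GENCODE start. The AP-1 site TGANTCA (7.79% of windows), the CArG box of serum response factor (1.64%), the NF-kB site GGGNNTTTCC (1.61%) and the glucocorticoid receptor hexamer TGTTCT (18.9%) were in none of the 8 windows. Bases outside these windows, and the promoters of Egr1 and Ier2, were not searched, so a site there would be missed. A match describes the letters only and no binding was measured.

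All 10 genes were lower in OB than in MSC libraries, in both genotypes. In deficient mice they fell by a median of 1.69 on the log2 scale, where the median of all 14692 genes tested was -0.02. In wild-type mice their median was -1.59, where the median of all 14696 genes tested was 0.01. All 10 differences passed in each genotype, with adjusted p (limma) of 8.18e-05 to 0.00178 in deficient mice and of 6.42e-09 to 9.63e-07 in wild-type mice. Such calls were common, with 30.6% of genes lower and 29.0% higher in OBs of deficient mice, and 35.5% lower and 34.4% higher in OBs of wild-type mice. In bulk libraries, fewer cells of a type and less RNA per cell cannot be told apart.

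Markers of several cell types differed between the sorts as well. The 14 stroma markers had a mean log2 level of 8.36 to 10.5 in deficient OBs and 8.69 to 9.31 in wild-type OBs, against 10.7 to 11.3 in deficient MSCs and 11.0 to 11.6 in wild-type MSCs. Of these 14, 8 were called lower in OBs of deficient mice (median difference -1.54) and 12 in OBs of wild-type mice (median -2.58), with 1 called higher in each. Of 11 neutrophil markers 9 were called lower in OBs in each genotype, with a median of -3.06 in deficient and -2.98 in wild-type mice, and 1 was called higher in deficient mice. All 10 erythroid markers were called higher in OBs, with a median of 2.13 in deficient and 1.99 in wild-type mice, as were all 10 blood progenitor markers, with a median of 2.75 in deficient and 2.40 in wild-type mice. The part that these cells had in the fall of the 10 genes was not tested.

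Fos, an AP-1 subunit, and Dusp1, a phosphatase that switches MAPKs off, had the largest differences on this scale in both genotypes. In deficient mice Fos had 27253, 26926, 16047 and 9252 normalized counts in OBs (mice E to H), against 90378, 92999, 97151 and 81714 in MSCs. In wild-type mice it had 13605, 12732, 11356 and 11425 in OBs (mice A to D), against 76990, 72089, 78375 and 66743 in MSCs. Every OB library was below every MSC library, and the 4 deficient OB libraries were spread over a wider range than the others. The log2 difference of Fos was -2.31 ± 0.34 in deficient mice and -2.58 ± 0.10 in wild-type mice (SE). Dusp1 had 4548, 3675, 2420 and 1799 normalized counts in deficient OBs, against 15471, 16398, 16575 and 11605 in deficient MSCs, a difference of -2.35 ± 0.27. In wild-type mice Dusp1 had 2262, 2525, 2139 and 2056 in OBs, against 15543, 13953, 15111 and 10550 in MSCs, a difference of -2.61 ± 0.12. Again no OB library reached the lowest MSC library.

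Ier2, a short nuclear protein gene, had the smallest difference of the 10 on this scale, but not after quantile normalization, where Fosb, Junb and Egr1 lay closer to 0 in both genotypes. It had 3625, 3726, 3177 and 2848 normalized counts in deficient OBs, against 6092, 8360, 7558 and 6434 in deficient MSCs, a difference of -1.08 ± 0.14. In wild-type mice Ier2 had 3332, 3151, 3019 and 3200 in OBs, against 6396, 6655, 5639 and 5688 in MSCs, a difference of -0.94 ± 0.07. The groups did not overlap in either genotype. The other 7 genes lay in between, from -2.01 ± 0.27 (Atf3) to -1.37 ± 0.27 (Fosb) in deficient mice and from -1.72 ± 0.12 (Atf3) to -1.24 ± 0.09 (Junb) in wild-type mice. Fosb, a close relative of Fos, had 38422, 35246, 25247 and 20033 normalized counts in deficient OBs, against 73057, 94547, 63983 and 68449 in deficient MSCs. The OB libraries were again below every MSC library. Wild-type libraries had 26512, 22234, 21656 and 23976 of Fosb in OBs, against 66584, 53477, 63099 and 64492 in MSCs, a difference of -1.39 ± 0.11. In deficient mice the difference was -1.77 ± 0.26 for Egr1, -1.70 ± 0.22 for Ier3, -1.67 ± 0.23 for Jun, -1.52 ± 0.17 for Jund and -1.51 ± 0.19 for Junb. In wild-type mice it was -1.69 ± 0.08 for Egr1, -1.50 ± 0.10 for Ier3, -1.68 ± 0.09 for Jun and -1.43 ± 0.07 for Jund. Groups of OB and MSC libraries did not overlap for any of the 10 genes, which held, lower in OBs, for 27.1% of all genes in deficient mice and for 32.9% in wild-type mice.

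**Figure D1:**
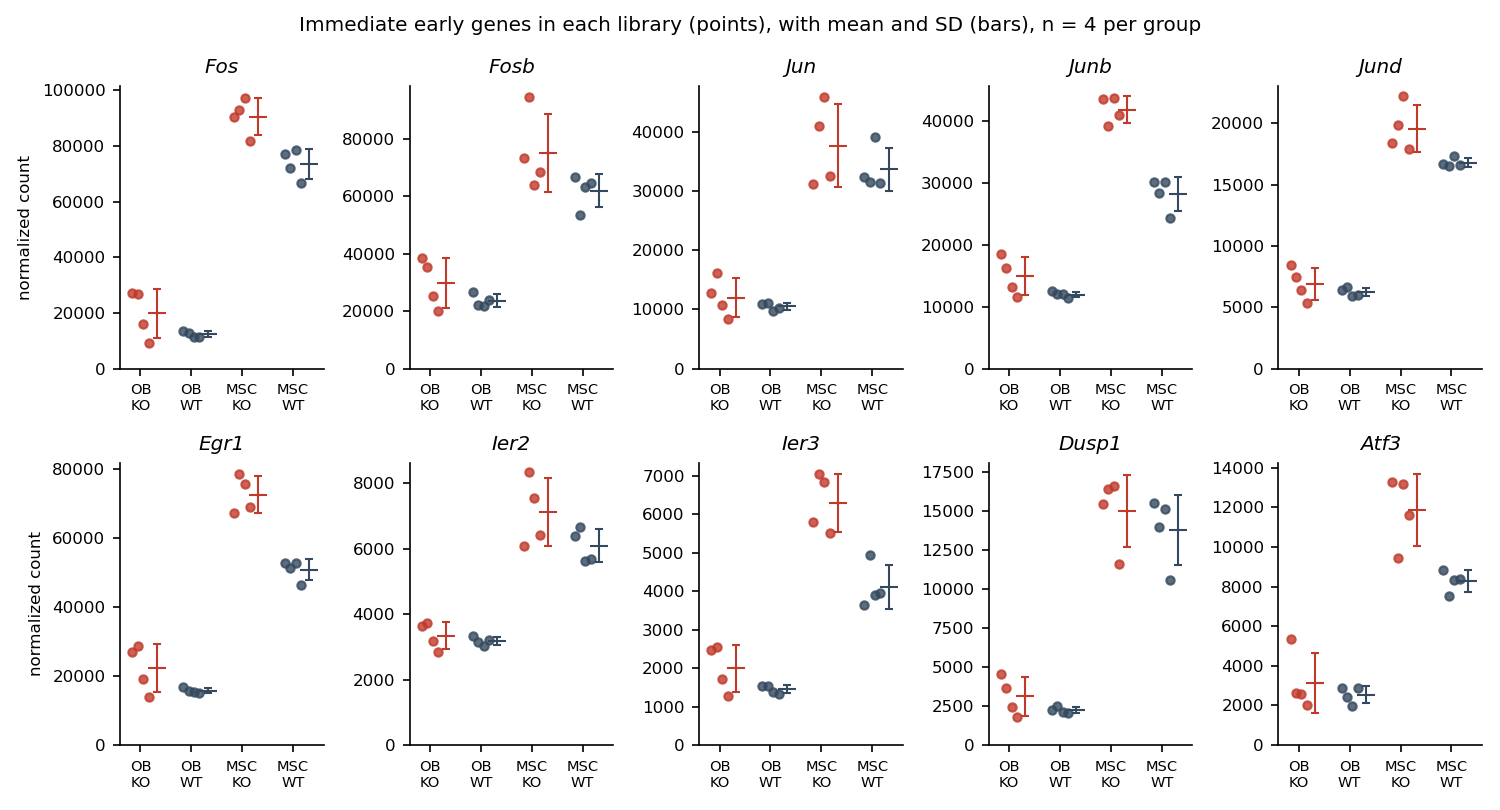
Normalized counts (linear axis from 0) of each immediate early gene in each library (points) with the mean and SD of the 4 libraries of a group (bars), for OB and MSC libraries of deficient (KO, red) and wild-type (WT, dark) mice. In every panel the OB libraries lie below the MSC libraries. The SD of the deficient OB libraries is largest for Fos (8787 normalized counts), which runs from 9252 to 27253.

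When OB and MSC libraries with the same animal number were paired, the fall was found in every pair, though such a pair may not be of 1 mouse alone. The median log2 difference of the 10 genes, OB minus MSC, was -1.26, -1.44, -1.99 and -2.04 in the deficient mice E to H, and -1.47, -1.58, -1.67 and -1.55 in the wild-type mice A to D. For Fos the same differences were -1.73, -1.79, -2.60 and -3.14 in mice E to H, and -2.50, -2.50, -2.79 and -2.55 in mice A to D. The deficient mice thus lay on both sides of the wild-type range, with E and F above it and G and H below it for the median of the genes.

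**Figure D2:**
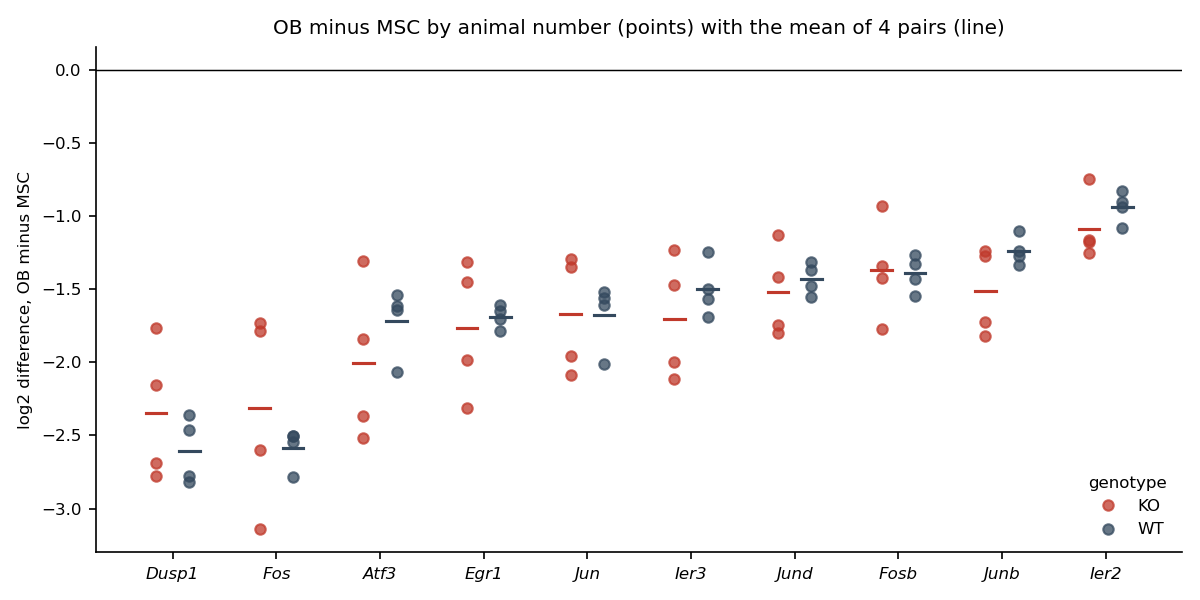
Log2 difference of each immediate early gene between the OB and the MSC library with the same animal number (points) with the mean of the 4 pairs (lines), for deficient (KO, red) and wild-type (WT, dark) mice, genes ordered by the wild-type mean. All points lie below 0, and for Fos the deficient mice run from -3.14 to -1.73 while the wild-type mice run from -2.79 to -2.50.

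The size of the fall depended on the scale. The libraries' normalized totals were lower in OBs, so that on scaling to library totals (CPM) the median of all genes was itself shifted, by 0.43 in deficient and 0.51 in wild-type mice. In these units the 10 genes had a median of -1.24 in deficient and -1.09 in wild-type mice. After quantile normalization their median was -0.75 in deficient and -0.72 in wild-type mice, where the median of all genes was 0.10 in deficient and 0.17 in wild-type mice. Fosb then turned to 0.40 (adjusted p = 0.229, limma) in deficient and 0.18 (adjusted p = 0.203, limma) in wild-type mice, and no longer passed. Junb and Egr1 stayed below 0 but did not pass in either genotype, and Fos and Jun did not pass in deficient mice. Fos and Jun in wild-type mice, and Dusp1, Atf3, Ier2, Ier3 and Jund in both genotypes, passed under every alternative tried.

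Per kilobase of transcript, the order of the 10 genes also differed between the sorts. In deficient OBs it began with Fos (9426 ± 4169 normalized counts per kilobase), Junb (8232 ± 1693) and Fosb (7863 ± 2265), and neighbours in that order overlapped (SD, n = 4). In wild-type OBs Junb (6611 ± 254), Fosb (6239 ± 577) and Fos (5825 ± 516) came first, again with overlap. In MSCs Fos stood first, with 42960 ± 3095 in deficient and 34891 ± 2504 in wild-type mice, and its libraries did not overlap those of the next gene. Ier2, Ier3, Atf3 and Dusp1 were the lowest 4 of the 10 in every group. The ratio of Fos to Fosb normalized counts within a library was 0.462 to 0.764 in deficient and 0.477 to 0.573 in wild-type OBs, against 0.984 to 1.52 in deficient and 1.03 to 1.35 in wild-type MSCs. This ratio was picked after its values were seen and carries no test.

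In MSCs, all 10 genes had a higher mean in deficient than in wild-type mice, but none of the 10 differences passed. The differences ran from 0.12 (Dusp1) to 0.62 (Ier3) with a median of 0.28, against -0.03 for all 14964 genes tested. Of all genes, 0.501% were called higher and 0.561% lower. At an unadjusted p under 0.05 stood 4 of the 10 (Ier3, Atf3, Junb and Egr1) and 3405 of all genes. For 6 of the 10 genes, Fos, Junb, Jund, Egr1, Ier3 and Atf3, every deficient library was above every wild-type library, which held for 6.30% of all genes.

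Ier3, which protects cells from apoptosis and is induced through MAPK and NF-kB signals, had the largest difference. It had 5790, 7048, 6826 and 5509 normalized counts in deficient MSCs (mice E to H), against 3637, 4948, 3898 and 3951 in wild-type MSCs (mice A to D). The difference was 0.62 ± 0.14, with an adjusted p of 0.0611 (limma). The groups were apart, and the lowest deficient library stood above wild-type B, the highest of its group.

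Junb, an AP-1 subunit that often restrains Jun, had 43538, 39257, 43769 and 40949 normalized counts in deficient MSCs, against 30098, 28393, 30181 and 24363 in wild-type MSCs. The difference was 0.57 ± 0.18 (adjusted p = 0.113, limma). Its deficient libraries lay close together, with an SD of 0.08 on the log2 scale, and wild-type D was the lowest of all 8. Egr1, the zinc finger factor, had 67231, 78619, 75532 and 68830 in deficient MSCs, against 52659, 51378, 52875 and 46284 in wild-type MSCs, a difference of 0.51 ± 0.21 (adjusted p = 0.186, limma). Atf3, a stress-induced repressor, had 13256, 9414, 13166 and 11602 in deficient MSCs, against 8845, 7508, 8339 and 8378 in wild-type MSCs, a difference of 0.51 ± 0.15 (adjusted p = 0.100, limma). For both genes the groups were apart, for Atf3 only narrowly between deficient F and wild-type A.

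Differences of the other 6 genes were smaller. Fos, with the values given above, differed by 0.30 ± 0.24 (adjusted p = 0.477, limma), and Jund by 0.22 ± 0.15. Fosb had 63983 to 94547 normalized counts in deficient MSCs and 53477 to 66584 in wild-type MSCs, a difference of 0.27 ± 0.24. Jun, the main DNA-binding partner of Fos, had 31234 to 45857 in deficient MSCs and 31390 to 39133 in wild-type MSCs, a difference of 0.15 ± 0.20. Ier2 differed by 0.21 ± 0.14 and Dusp1 by 0.12 ± 0.18. Fosb, Jun, Ier2 and Dusp1 overlapped between the genotypes. The adjusted p of these 6 genes ran up to 0.719 (Dusp1, limma), and their 95% intervals included 0 as the plot of genotype differences shows.

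Whether members of the set passed in MSCs depended on the method. With array weights Ier3, Atf3 and Junb passed, with DESeq2 on recovered reads these and Egr1, with all 16 libraries in 1 fit Ier3 and Junb, and on scaling to library totals Ier3. Without deficient mouse F, Ier3, Atf3 and Junb passed as well (adjusted p = 0.0272, 0.0135 and 0.0461, limma). The count of all genes called rose too, from 159 to 1714 with array weights, 1196 with DESeq2 and 2246 with all 16 libraries. It was 209 on scaling to library totals and 2261 without deficient F. Over the 20 alternatives the difference was 0.56 to 0.72 for Ier3 and 0.50 to 0.68 for Junb.

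Markers of other cell types differed among the MSC libraries. The 11 skeletal muscle markers had summed normalized counts of 419, 514, 1545 and 5469 in deficient mice E to H, against 297 to 597 in wild-type mice, where Myh4 was at 0 in every library. Of the 9 muscle markers tested, none passed, and their median difference was 1.27. With the muscle level as a covariate the median of the 10 immediate early genes was 0.38, and without deficient mice G and H together, where muscle was highest, it was 0.38. The 11 neutrophil markers had a mean log2 level of 10.8 to 11.9 in deficient and 10.4 to 12.6 in wild-type MSCs. None passed, 2 of 11 had a difference above 0 and their median was -0.55, and with the neutrophil level as a covariate the median of the 10 genes was 0.27. The 14 stroma markers, with the levels given above, had a median difference of -0.19. Of 14 bone matrix markers 3 were called lower in deficient MSCs, with a median difference of -1.09, and of 11 B-cell markers 4 were, with a median difference of -1.67. The part that any of these had in the immediate early genes was otherwise not tested.

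In OBs, all 10 genes again had a higher mean in deficient than in wild-type mice, and none passed. The median difference was 0.29, and leaving out 1 library moved it to between 0.16 (without deficient E) and 0.44 (without deficient H). The median of all 14229 genes tested was -0.02, and of these 0.0211% were called higher and 0.00703% lower. At an unadjusted p under 0.05 stood 1 of the 10 (Junb) and 1274 of all genes. For none of the 10 were the genotypes apart, while 2.47% of all genes had every deficient library above every wild-type library. The adjusted p of the 10 genes was 0.545 to 0.839 (limma).

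**Figure D3:**
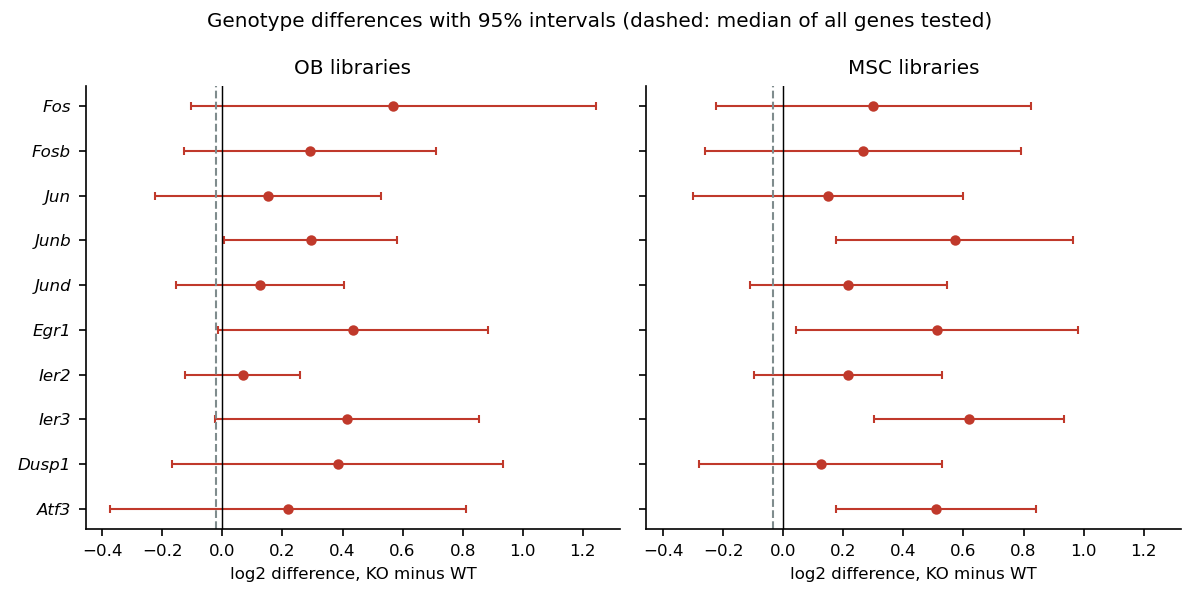
Log2 difference between deficient and wild-type mice (KO minus WT, points) with its 95% interval (bars) for each immediate early gene, in OB libraries (left) and MSC libraries (right); the dashed line is the median of all genes tested. All 20 points lie right of 0, with the largest at 0.57 (Fos) in OBs and 0.62 (Ier3) in MSCs.

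The deficient OB libraries stood far apart from each other. Egr1 had 26998, 28758, 19104 and 13869 normalized counts in deficient OBs (mice E to H), against 16761, 15752, 15344 and 15209 in wild-type OBs (mice A to D). Deficient E and F were above every wild-type library, deficient G was slightly above and deficient H below all of them. For Fos, given above, deficient E, F and G were likewise above every wild-type library and deficient H below all, with a difference of 0.57 ± 0.30 (adjusted p = 0.612, limma), and Egr1 differed by 0.43 ± 0.20 (adjusted p = 0.559, limma). Junb had 18471, 16245, 13237 and 11611 in deficient OBs, against 12454, 12061, 11977 and 11344 in wild-type OBs, a difference of 0.29 ± 0.13 (adjusted p = 0.545, limma). Atf3 had 5370, 2625, 2557 and 2026 in deficient OBs, against 2884, 2405, 1987 and 2888 in wild-type OBs, so that deficient E alone stood far above the rest (0.22 ± 0.26, adjusted p = 0.830, limma).

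The other 6 genes had like patterns in OBs. Ier3 had 2462, 2543, 1713 and 1274 normalized counts in deficient OBs, against 1533, 1534, 1381 and 1333 in wild-type OBs, a difference of 0.41 ± 0.20. Jun had 12755, 16087, 10783 and 8343 in deficient OBs, against 10976, 11024, 9710 and 10277 in wild-type OBs, a difference of 0.15 ± 0.17. In each, deficient E and F stood highest and deficient H lowest of all 8 libraries. Jund had 5341 to 8407 in deficient and 5893 to 6654 in wild-type OBs (0.12 ± 0.12), Fosb differed by 0.29 ± 0.19, Dusp1 by 0.38 ± 0.25 and Ier2 by 0.07 ± 0.09.

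For 10 of 10 genes deficient H was the lowest deficient OB library, and the highest was E for 6 genes and F for 4. On average over the 10 genes, E stood 0.41 and F 0.28 above the mean of the deficient OBs on the log2 scale, and G stood at -0.16 and H at -0.53. The SD over the 4 deficient OB libraries ran from 0.18 (Ier2) to 0.74 (Fos), with 0.60 for Dusp1 and 0.61 for Atf3, where the median over all genes was 0.20 and that over genes with a mean of at least 1000 normalized counts, as the 10 genes had, was 0.12. In wild-type OBs the SD of the 10 genes ran from 0.06 (Junb) to 0.26 (Atf3), where the median over all genes was 0.14 and that over genes of at least 1000 was 0.07. Among these higher genes, 77.2% to 96.0% had a smaller SD than each of the 10 in deficient OBs and 34.1% to 96.0% in wild-type OBs, where Fos stood above 87.8%. In deficient MSCs it was 0.08 (Junb) to 0.27 (Jun), and in wild-type MSCs 0.03 (Jund) to 0.26 (Dusp1), where the median over all genes was 0.37 in deficient and 0.28 in wild-type MSCs, and that over genes of at least 1000 was 0.25 in deficient and 0.15 in wild-type MSCs.

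Markers of MSC stroma moved with these libraries. The 14 stroma markers, such as Lepr and Cxcl12, had a mean log2 level of 10.1, 10.5, 9.25 and 8.36 in deficient OBs E to H, against 9.31, 8.95, 8.80 and 8.69 in wild-type OBs A to D. Their summed normalized counts ran from 7614 to 45284 in deficient and from 9266 to 14278 in wild-type OBs, and none of the 14 was at 0 throughout. Of the 14, none passed between the genotypes, 10 had a difference above 0 and their median was 0.68. The median log2 level of the 10 immediate early genes was 13.3, 13.4, 13.0 and 12.7 in deficient OBs E to H, against 13.0, 13.1, 12.9 and 12.9 in wild-type OBs. With the stroma level as a covariate, the median genotype difference of the 10 genes was 0.03, and without deficient E and F it was -0.07. Deficient E and F were also the highest deficient OB libraries for the 10 genes, so leaving them out had to lower that median. The part of stroma in the genotype difference was not tested. Of 11 neutrophil markers in OBs none passed, with a median difference of -0.57, and with their level as a covariate the median of the 10 genes was 0.31. Without E and F, Junb, Egr1 and Ier3 stayed just above 0 and the other 7 were below it, with Fos at -0.01 and Jun at -0.14.

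**Figure D4:**
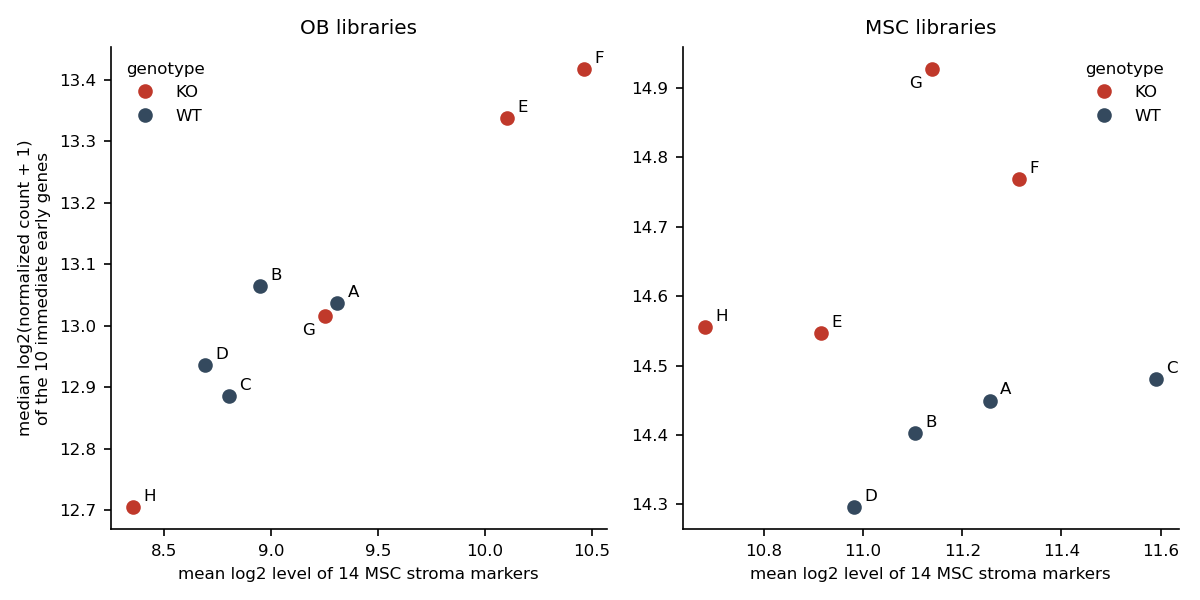
Median log2(normalized count + 1) of the 10 immediate early genes against the mean log2 level of 14 MSC stroma markers in each library, OB (left) and MSC (right), for deficient (KO, red) and wild-type (WT, dark) mice lettered by animal; the axes do not start at 0. Among OBs, deficient E and F are high on both axes (10.1 and 10.5 for stroma) and deficient H is low on both (8.36), while in MSCs every deficient library lies above every wild-type one on the vertical axis.

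The genes whose values followed the 10 most closely were ranked by Pearson r between their deviations from the group means and the mean deviation of the 10 genes, over the 16 libraries and 12569 genes. Among the first 5 were Cdh11 (r = 0.97), an adhesion protein of mesenchymal cells, Rnd3 (0.97), the transcription factor Snai1 (0.96) and the chemokine Cxcl14 (0.96). For these genes r was 0.96 to 0.98 within the 8 OB libraries and, within the 8 MSC libraries, 0.78 to 0.95. All of these values come from the same libraries, which differed in depth and in marker levels. The mean deviation of the 10 genes was -0.53 to 0.41 in the 4 deficient OB libraries and -0.14 to 0.11 in the other 12 libraries.

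The genotype effect on the 10 genes was not found to differ between the sorts. The difference of the effects, OB minus MSC, ran from -0.29 (Atf3) to 0.27 (Fos) with a median of -0.09, against 0.04 for all 15556 genes tested. None passed, at adjusted p of 0.605 to 0.997 (limma), and none stood at an unadjusted p under 0.05, while 1786 of all genes did. Of all genes, 0.00643% were called in each direction.

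Among 43 other immediate early genes, the mean was mostly higher in deficient MSCs as well. Of the 43 tested, 32 had a difference above 0, 3 were called higher and 0 lower, with a median of 0.28. Of all genes, 0.501% were called higher and 0.561% lower, with a median of -0.03. The 43 include Sgk1, Per1, Errfi1 and Cebpd, which also belong to the list of glucocorticoid-induced genes below. Ier5l, a relative of Ier2, averaged 1613 ± 153 normalized counts in deficient and 889 ± 77.7 in wild-type MSCs, a difference of 0.86 ± 0.13 (adjusted p = 0.0253, limma). Myc, the growth-promoting transcription factor, averaged 6432 ± 1222 in deficient and 3036 ± 602 in wild-type MSCs, a difference of 1.09 ± 0.18 (adjusted p = 0.0270, limma). Cebpd, a C/EBP transcription factor, averaged 9906 ± 3648 in deficient and 3444 ± 623 in wild-type MSCs, a difference of 1.46 ± 0.26 (adjusted p = 0.0373, limma). No gene passed without deficient G and H, these 3 included, and leaving out any 1 library other than deficient F left 0 to 12 called genes in all. In OBs 0 of 42 passed (4 at an unadjusted p under 0.05), with a median of 0.14, and Ier5l had the smallest p (0.97 ± 0.27, adjusted p = 0.317, limma), followed by Cebpd (1.04 ± 0.32, adjusted p = 0.379, limma).

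Between the sorts, 36 of 42 of these genes tested were called lower in deficient OBs than in deficient MSCs and 2 higher, and in wild-type mice 36 of 43 were lower and 2 higher. Of all genes, 30.6% were called lower in OBs of deficient and 35.5% in OBs of wild-type mice. The Krüppel-like transcription factors Klf4 and Klf2 had the smallest p in wild-type mice. Klf4 averaged 3907 ± 470 normalized counts in wild-type OBs and 22427 ± 2584 in wild-type MSCs (-2.52 ± 0.11, adjusted p = 1.57e-08, limma), and Klf2 differed by -2.43 ± 0.11. The 2 genes that were higher in OBs were Egr3, a relative of Egr1, at 1475 ± 50.5 in wild-type OBs and 1084 ± 161 in wild-type MSCs (0.46 ± 0.11, adjusted p = 0.00277, limma), and Klf10 (0.33 ± 0.13, adjusted p = 0.0445, limma).

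Genes upstream of the set showed no call between the genotypes. Of 21 kinases, serum response factor partners and receptors tested, 0 passed in MSCs (8 at an unadjusted p under 0.05; median 0.17) and 0 in OBs (1 unadjusted; median -0.02). Egfr, the epidermal growth factor receptor, had the smallest p in MSCs, with 5037 ± 1774 normalized counts in deficient and 2289 ± 748 in wild-type mice (1.13 ± 0.25, adjusted p = 0.0555, limma), and next came Map2k2, a MAPK kinase (-0.71 ± 0.21). In OBs Braf (0.21 ± 0.09, adjusted p = 0.543, limma) and Elk3 (-0.17 ± 0.10) came first. Between wild-type sorts 7 of the 21 were called higher in OBs and 9 lower, where 34.4% of all genes were called higher and 35.5% lower. Among them Mapk14, the stress kinase p38 alpha, was higher (1.23 ± 0.07), and Egfr was lower (-3.73 ± 0.26).

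Feedback inhibitors of MAPK signalling, the relatives of Dusp1 and the Sprouty family, had no call between the genotypes. In MSCs 0 of 16 passed (4 unadjusted; median -0.12), with Dusp3 (-0.72 ± 0.17, adjusted p = 0.0611, limma) and Dusp8 (-0.63 ± 0.20) first by p, and in OBs 0 of 16 (0 unadjusted; median 0.02), with Dusp7 (0.26 ± 0.14) and Dusp2 (-0.17 ± 0.09) first. Between wild-type sorts 5 of 16 were called higher in OBs and 7 lower, where 34.4% of all genes were called higher and 35.5% lower. Dusp2, at 1519 ± 120 normalized counts in wild-type OBs and 305 ± 78.0 in wild-type MSCs, went the opposite way to Dusp1 (2.35 ± 0.17, adjusted p = 4.75e-07, limma), and Dusp16 was also higher (1.32 ± 0.11). Spry4 (-2.55 ± 0.22) and Dusp3 (-1.30 ± 0.11) were lower in OBs.

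Partners of AP-1 in the basic leucine zipper family had no call between the genotypes in MSCs (0 of 15, 4 unadjusted; median 0.12) or OBs (0 of 16, 3 unadjusted; median 0.01). First by p in MSCs were Jdp2, a repressor that binds Jun (-0.58 ± 0.13, adjusted p = 0.0608, limma), and Maf (0.78 ± 0.21), and in OBs Maf (1.27 ± 0.39, adjusted p = 0.379, limma) and Ddit3 (0.26 ± 0.10). Between wild-type sorts 4 of 16 were higher in OBs, among them Atf1 (0.59 ± 0.07) and Batf2 (3.80 ± 0.84), and 9 lower, among them Jdp2 (-1.91 ± 0.09). Of all genes, 34.4% were called higher and 35.5% lower between these sorts.

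Known AP-1 target genes were lower in OBs. Of 20 tested in deficient mice, 15 were called lower and 0 higher, with a median of -2.03, and in wild-type mice 16 of 20 were lower and 0 higher, with a median of -1.80. Of all genes, 30.6% were called lower in OBs of deficient and 35.5% in OBs of wild-type mice. The protease gene Plau averaged 135 ± 19.5 normalized counts in wild-type OBs and 1429 ± 482 in wild-type MSCs (-3.35 ± 0.22, adjusted p = 2.37e-07, limma), and the chemokine gene Cxcl1 differed by -4.37 ± 0.32. The part of the stroma and neutrophil markers, most of which were called lower in the same comparison, was not tested. Between the genotypes 0 of 20 passed in MSCs (3 unadjusted; median -0.09), with Hmox1 (0.99 ± 0.25, adjusted p = 0.0739, limma) and Sphk1 (0.85 ± 0.24) first by p. In OBs 0 of 19 passed (4 unadjusted; median -0.12), with Lif (-0.74 ± 0.23, adjusted p = 0.379, limma) and Mmp13 (1.23 ± 0.44) first.

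Heat shock genes, which also respond to stress and handling, were split between the sorts. In wild-type mice 5 of 15 were higher in OBs, among them the mitochondrial chaperone Hspd1 (1.60 ± 0.08) and Hsp90ab1 (1.12 ± 0.08), and 8 were lower, among them Cryab (-2.70 ± 0.14) and Bag3 (-1.65 ± 0.11), with a median of -0.32. Of all genes, 34.4% were called higher and 35.5% lower in the same comparison. Between the genotypes 0 of 15 passed in MSCs (3 unadjusted; median 0.20), with Hspb1 (0.52 ± 0.15, adjusted p = 0.0899, limma) and Dnaja1 (0.37 ± 0.12) first by p, and 0 of 15 in OBs (2 unadjusted; median 0.03), with Hspa1a (0.75 ± 0.29, adjusted p = 0.477, limma) and Dnaja1 (0.17 ± 0.07) first.

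Genes induced by glucocorticoids, which are known to raise Dusp1 and to restrain AP-1, had larger genotype differences by their median than the 10 genes had. In MSCs 14 of 14 had a difference above 0, with a median of 1.45, and 7 were called higher and 0 lower. This list, like the others, was chosen with earlier results of these data known. Of all genes 0.501% were called higher. No gene passed without deficient G and H, or with the muscle level as a covariate. The mean log2 level of the list was 13.6, 11.7, 12.5 and 12.8 in deficient MSCs E to H, against 10.5 to 11.2 in wild-type MSCs. Fkbp5, a chaperone of the glucocorticoid receptor, averaged 3900 ± 3005 normalized counts in deficient and 455 ± 108 in wild-type MSCs (2.82 ± 0.42, adjusted p = 0.0253, limma). The metallothionein genes Mt1 (1.92 ± 0.29, adjusted p = 0.0253, limma) and Mt2 (1.98 ± 0.34, adjusted p = 0.0313, limma) came next by p. Dusp1 itself differed by 0.12 ± 0.18 in the same libraries. The part of glucocorticoids in the levels of the 10 immediate early genes was not tested. Sgk1, Per1, Errfi1 and Cebpd belong to both this list and the other immediate early genes. In OBs 0 of 14 passed (10 unadjusted; median 0.90), with Klf15 (3.71 ± 0.66, adjusted p = 0.112, limma) and Tsc22d3 (1.24 ± 0.29) first. The mean log2 level was 11.8, 10.4, 10.4 and 10.2 in deficient OBs E to H, against 9.49 to 9.73 in wild-type OBs.

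**Figure D5:**
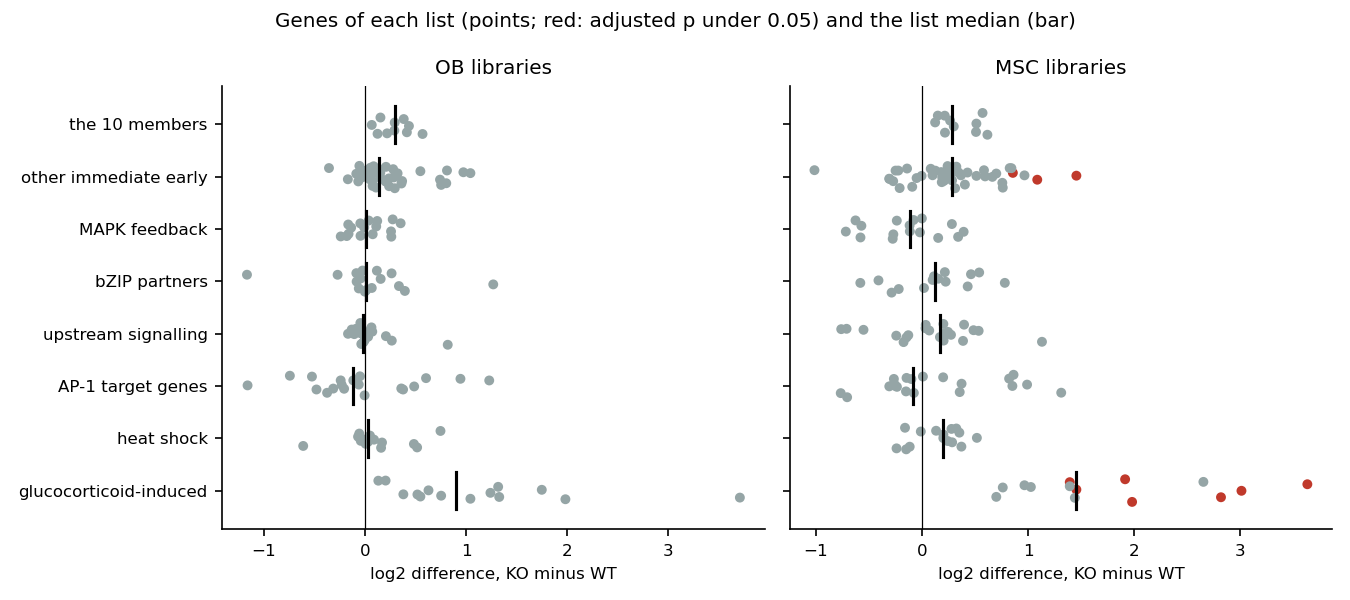
Log2 difference between deficient and wild-type mice (KO minus WT) of each gene of 8 gene sets (points; red where the adjusted p was under 0.05) with the median of the set (bars), in OB libraries (left) and MSC libraries (right). The medians of the 10 immediate early genes are 0.29 in OBs and 0.28 in MSCs, and those of the glucocorticoid-induced genes 0.90 in OBs and 1.45 in MSCs.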

How the data were processed

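Members and gene lists were chosen with earlier results of these data known. The authors' deposited table holds normalized counts per gene symbol (a signal, not raw reads), made with DESeq2 1.24.0 and mm10 per the submitters' processing notes. Which aligner, counter and annotation were used is not given in the sources used here. Per the labels, RNA was poly(A)-selected and libraries were made with a NEBNext Ultra kit. Multiplied back by 1 step per library, 100% of values were whole within 0.01, so whole reads were recovered.

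Log2(normalized count + 1) values were fitted with limma 3.58.1 (empirical Bayes with trend, R 4.3.3) over genes with at least 10 in at least 4 of the libraries fitted, with Benjamini-Hochberg adjustment over all of them. Comparisons were deficient against wild-type in each sort, OB against MSC in each genotype, and the difference of the genotype effects. Replicates differed beyond counting error (chi-square per degree of freedom of 9.92 or more in every pair), so none was merged. The fits were tested on simulated data.

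Although a library may hold RNA of more than 1 mouse, MSC and OB libraries with the same animal number were paired as 1 mouse. Their deviations from the group means correlated with r of 0.0241 to 0.285, and 7 of 8 mice correlated best with their own number. Alternatives were array weights, quantile normalization, a pseudocount of 5, a filter of 50 or none, edgeR 4.0.16 and DESeq2 1.42.0 on recovered reads, 1 fit of all 16 libraries, marker levels as covariates, pairs of libraries left out, a replicate block and leaving out each library. Scaling to library totals (CPM) was added after seeing the data.

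Named genes were the 10 members, and from each list up to 3 passing per direction between genotypes (otherwise the 2 smallest p), up to 2 per direction between wild-type sorts, and the 5 genes most alike, of which some are not reported here. List genes between deficient sorts and in the difference of effects are given as counts or not at all. List symbols without a match in the table, such as Id1 and Id3, were not analysed here.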

Additional observations from a re-analysis of the deposited data

Results flagged for a closer look

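In 2 of the 40 combinations of a gene and a group, 1 library lay far from the other 3 of its group by Dixon's test at 95% (the gap to the nearest library over the group's range). Chance gives about 1 in 20 such cases. Jun in wild-type MSCs had 39133 normalized counts in mouse C and 31390 to 32432 in the others, a gap of 0.865 of the range. Jund in wild-type MSCs had 17312 normalized counts in mouse C and 16525 to 16631 in the others, also 0.865 of the range.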

How the results depend on the processing

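In MSCs the count of the 10 genes passing between genotypes was 0, but 3 with array weights, 4 with DESeq2, 1 on scaling to library totals, 2 with all 16 libraries in 1 fit, and 0 to 3 on leaving out 1 library (3 without deficient F). All genes called in MSCs numbered 159, 1714 with array weights, 1196 with DESeq2, 2246 with all 16 libraries, 38 with the neutrophil level and 0 with the muscle level as covariate, 0 without deficient G and H, and 0 to 2261 leaving out 1 library (the highest without deficient F). In OBs none of the 10 passed under any alternative, and their median of 0.29 was 0.16 to 0.44 leaving out 1 library, 0.034 with the stroma level as covariate and -0.071 without deficient E and F. All genes called in OBs numbered 4, 16 after quantile normalization, 75 with array weights, 194 with DESeq2, 253 with the stroma and 7 with the neutrophil level, 88 without E and F, 24 with all 16 libraries, 8 on scaling to library totals, and 3 to 108 leaving out 1 library (the highest without deficient H). The 2 genes called for the difference of effects became 140 with array weights, 127 with DESeq2, 571 without deficient MSC library F, 0 to 4 without any other library and 0 to 4 under the other alternatives, and none of the 10 passed under any alternative. Between sorts after quantile normalization, 5 of the 10 genes passed in deficient mice, as did 8801 of all 14692 genes (3949 lower). In wild-type mice 7 of the 10 passed, as did 10326 of all 14696 genes (4496 lower). Fosb then reversed to 0.40 in deficient and 0.18 in wild-type mice. The median of the 10 was then -0.75 in deficient and -0.72 in wild-type mice, and on scaling to library totals -1.24 in deficient and -1.09 in wild-type mice. The causes were not tested. With the mouse as a replicate block, 10 of 10 genes passed between sorts in each genotype. Of all genes, 8978 passed in deficient and 10216 in wild-type mice. For the difference of effects 0 of the 10 passed. The medians of the 10 were -1.69 between sorts in deficient mice, -1.59 in wild-type mice and -0.09 for the difference of effects. At 4 libraries a group, a difference that did not pass may still be present.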
